A study of Mus musculus with 80 samples.

Results

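The respiratory chain and ATP synthase of liver cells are described here through 83 nuclear genes, chosen by their symbols from the 20105 genes of the count table. The symbols are those of the numbered Ndufa, Ndufb, Ndufc, Ndufs and Ndufv series, of Sdha to Sdhd, and all that begin with Uqcr, Cox4 to Cox8 or Atp5. By symbol they divide into 36 genes of complex I, 4 of complex II, 8 of complex III, 18 of complex IV and 17 of complex V. A few rows that the symbols take in are not subunits: Atp5s (also named Dmac2l) encodes a coupling factor of ATP synthase, Atp5sl (also named Dmac2) encodes an assembly protein of complex I, and Cox7a2l encodes a factor of supercomplex assembly. Ndufa4 keeps a complex I name and is now counted as a subunit of complex IV.

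Oxidative phosphorylation takes electrons from NADH at complex I and from succinate at complex II, passes them through complex III to oxygen at complex IV, and uses the proton gradient that results to make ATP at complex V. Most subunits are encoded in the nucleus, and a small core is encoded in mitochondrial DNA, for which the table has no row. In a fasting liver the chain reoxidises the NADH of fatty acid oxidation and supplies ATP for gluconeogenesis. Many of these promoters are known for sites of NRF1, of the ETS family factor GABP, of YY1 and of the estrogen-related receptors, whose coactivator PGC-1alpha (Ppargc1a) is induced by fasting.

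Female mice lost access to food at zeitgeber time 12, when the lights went off, and livers were taken 3, 8, 16 and 24 h later, together with those of fed mice at the same hours, to follow the response of each cell type apart from the daily rhythm. Fasted and fed groups of 4 libraries each at every time came from HEP-INTACT mice, whose hepatocyte nuclei carry a tag for immunopurification, and equally from MAC-INTACT mice, whose macrophage nuclei carry it. The 16 pools of unpurified liver nuclei, 1 per line, feeding state and time, held nuclei of 4 mice each. The labels name neither the promoter that drives the tag, nor the age of the mice, nor the number of mice in a tagged library. The p-values below refer to the spread from library to library. Total nuclear RNA was sequenced without selection of polyadenylated RNA, and reads were counted over whole gene bodies, introns included. A level is given in CPM, the usual measure of counts relative to the library's total, scaled by the trimmed mean of M-values (TMM).

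Library totals lay between 12597786 and 30089561 counts in hepatocyte-tagged nuclei, between 14968505 and 44694933 in macrophage-tagged nuclei and between 13246494 and 35514304 in the pools. The summed level of 14 macrophage markers was 37.6 to 112.9 CPM in hepatocyte-tagged libraries and 4585 to 8956 CPM in macrophage-tagged libraries, with no overlap. The summed level of 15 hepatocyte markers was 9880 to 31764 CPM in hepatocyte-tagged libraries and 4301 to 22253 CPM in macrophage-tagged libraries. These ranges overlapped, and the 22253 CPM belonged to replicate 3 of the 3 h fast. None of these markers was at 0 throughout either kind of library.

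Of the 83 genes, 76 passed the filter on low counts in the tagged libraries and 75 in the pools. The 7 that passed nowhere stayed under 1 CPM in every group: Cox4i2, Cox6a2, Cox7a1, Cox7b2, Cox8b, Cox8c and Ndufs5. The first 6 are the tissue-restricted forms of complex IV subunits, known from lung, heart and skeletal muscle or testis. Cox8c had no count in any of the 80 libraries, which allows a level of up to 0.00171 CPM by counting error alone. Ndufs5, a subunit of complex I that all cells use, had 23 counts over the 80 libraries, and the reason was not tested.

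To show the regulatory sequence of the genes on which the results below turn, a RefSeq promoter window of 300 bases, 250 before the start of transcription and 50 after it, is printed for 6 of them, 5′ to 3′ on the strand of the gene, in the build GRCm38.p6. Such windows were found for 69 of the 83 genes, 66 by symbol and 3 by synonym, and where a gene had several the first listed is shown. Capitals mark a match to any of 4 motifs searched on both strands: CCGGAAGT for ETS factors, CGCATGCG, the core of a longer palindrome, for NRF1, AAGATGGCG for YY1 and AAGGTCA for the estrogen-related receptors. Cox6b2 and Atp5sl carry the largest fasting effects, and Ndufc1, Atp5h, Atp5g2 and Atp5l rose with fasting and hold, in that order, a match to the YY1, ETS, NRF1 and estrogen-related receptor letters. The Atp5l window also holds a match to the NRF1 letters.
Cox6b2, chr7:4753045-4753344, minus strand: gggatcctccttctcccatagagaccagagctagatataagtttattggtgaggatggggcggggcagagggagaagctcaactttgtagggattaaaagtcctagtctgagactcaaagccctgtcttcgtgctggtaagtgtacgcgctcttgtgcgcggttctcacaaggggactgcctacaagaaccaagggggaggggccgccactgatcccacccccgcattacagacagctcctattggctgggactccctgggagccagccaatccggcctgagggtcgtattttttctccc
Atp5sl, chr7:25619164-25619463, plus strand: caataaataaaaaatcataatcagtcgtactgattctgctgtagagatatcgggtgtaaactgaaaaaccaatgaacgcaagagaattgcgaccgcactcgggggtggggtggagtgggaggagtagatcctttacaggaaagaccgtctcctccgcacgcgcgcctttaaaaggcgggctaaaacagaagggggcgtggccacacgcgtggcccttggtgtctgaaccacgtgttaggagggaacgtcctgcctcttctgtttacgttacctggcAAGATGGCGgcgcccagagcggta
Ndufc1, chr3:51408906-51409205, minus strand: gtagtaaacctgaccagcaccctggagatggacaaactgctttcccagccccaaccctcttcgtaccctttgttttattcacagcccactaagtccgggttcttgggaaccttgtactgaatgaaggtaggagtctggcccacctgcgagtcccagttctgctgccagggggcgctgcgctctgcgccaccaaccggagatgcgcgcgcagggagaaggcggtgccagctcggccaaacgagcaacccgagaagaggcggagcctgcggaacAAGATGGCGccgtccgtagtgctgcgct
Atp5h, chr11:115419870-115420169, minus strand: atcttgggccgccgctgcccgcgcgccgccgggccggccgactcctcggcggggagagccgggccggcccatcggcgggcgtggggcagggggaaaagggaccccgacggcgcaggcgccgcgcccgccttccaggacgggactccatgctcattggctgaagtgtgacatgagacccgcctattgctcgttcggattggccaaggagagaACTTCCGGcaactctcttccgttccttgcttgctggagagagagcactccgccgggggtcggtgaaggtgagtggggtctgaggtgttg
Atp5g2, chr15:102670998-102671297, minus strand: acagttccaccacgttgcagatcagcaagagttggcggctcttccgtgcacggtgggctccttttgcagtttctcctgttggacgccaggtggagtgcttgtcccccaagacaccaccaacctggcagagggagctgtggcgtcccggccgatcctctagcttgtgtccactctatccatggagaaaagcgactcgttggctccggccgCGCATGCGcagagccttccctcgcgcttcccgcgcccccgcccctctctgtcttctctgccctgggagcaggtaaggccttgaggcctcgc
Atp5l, chr9:44920693-44920992, minus strand: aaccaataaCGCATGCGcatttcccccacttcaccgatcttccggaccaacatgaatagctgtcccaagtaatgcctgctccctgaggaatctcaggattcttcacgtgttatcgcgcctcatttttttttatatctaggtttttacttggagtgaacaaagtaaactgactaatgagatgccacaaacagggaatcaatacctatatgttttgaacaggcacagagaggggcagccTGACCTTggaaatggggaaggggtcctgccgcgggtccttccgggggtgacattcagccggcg

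No match stood in the Cox6b2 window, and the match of Atp5sl lay just after the start site. Over the 75 promoter windows of these genes, 27 held at least 1 of the 4 motifs, or 36%, against 11.3% of all 32851 windows. The YY1 letters stood in 12% of their windows against 1.4% of all windows, the NRF1 letters in 12% against 1.87%, the estrogen-related receptor letters in 10.7% against 4.72% and the ETS letters in 6.67% against 3.89%. No 2 motifs overlapped in these windows. The fasting effect in hepatocytes at 8 h had a median log2 fold change of 0.50 over the 7 tested genes with the estrogen-related receptor letters and 0.36 over the 58 without. For the YY1 letters these medians were 0.44 over 8 genes and 0.35 over 57, and for the ETS letters 0.39 over 5 and 0.36 over 60. For the NRF1 letters the order was the other way, 0.25 over 9 genes with them and 0.41 over 56 without. At 16 h the medians with and without the letters were 0.23 and 0.26 for the estrogen-related receptors, 0.19 and 0.27 for YY1, 0.20 and 0.26 for ETS and 0.28 and 0.24 for NRF1, so that each order was turned. The NRF1 core was chosen after a longer form, which fewer windows hold, had been searched. These shares and medians describe letters in a window and were not tested.

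The order of levels per length in fed mice was led by ATP synthase genes in both cell types. Levels here are CPM per kb of gene body, mean and SD over 16 fed libraries. Atp5b, the catalytic beta subunit, stood at 8.80 ± 1.29 CPM per kb in hepatocyte nuclei and 4.91 ± 0.45 CPM per kb in macrophage nuclei. Atp5a1, the alpha subunit, followed at 7.57 ± 1.80 and 4.87 ± 0.41 CPM per kb in the same order of cells, and the gap between these neighbours was below 1 SD in both cell types. The next places in hepatocyte nuclei were Ndufa6 at 5.62 ± 0.56, Atp5d at 5.54 ± 0.90 and Atp5g3 at 5.43 ± 0.79 CPM per kb. Cox7c at 5.39 ± 1.05 and Cox5b at 5.14 ± 1.38 CPM per kb followed, and all of these lay closer together than their SDs. The lowest tested genes in hepatocyte nuclei were Atp5s at 0.39 ± 0.11, Ndufa1 at 0.32 ± 0.08 and Cox6b2 at 0.0794 ± 0.0753 CPM per kb.

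Complex IV subunits with alternative forms were compared form by form. In fed hepatocyte nuclei Cox4i1 stood at 2.14 and Cox4i2 at 0.00158 CPM per kb, Cox7a2 at 2.75 and Cox7a1 at 0.102, Cox7b at 2.63 and Cox7b2 at 0.000168, and Cox8a at 2.42 and Cox8b at 0.00139. Cox6a1 stood at 1.92 CPM per kb in these libraries and the muscle form Cox6a2 had no count, which allows up to 0.00982 CPM. Cox6b1 stood at 1.87 CPM per kb and the testis form Cox6b2 at 0.0794. In fed macrophage nuclei Cox6b1 stood at 1.26 ± 0.12 and Cox6b2 at 0.353 ± 0.139 CPM per kb, a narrower gap than in hepatocyte nuclei. The c subunit of the ATP synthase ring has 3 genes, whose mature proteins are identical. In fed hepatocyte nuclei they stood at 5.43 ± 0.79 for Atp5g3, 2.77 ± 0.38 for Atp5g1 and 1.80 ± 0.23 CPM per kb for Atp5g2, an order with gaps larger than the SDs. In fed macrophage nuclei Atp5g3 stood at 2.87 ± 0.28, Atp5g2 at 1.49 ± 0.15 and Atp5g1 at 1.27 ± 0.27 CPM per kb. There Atp5g1 had the lowest mean, and its gap to Atp5g2 was below the SD of Atp5g1. The order of these genes was not tested.

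**Figure D1:**
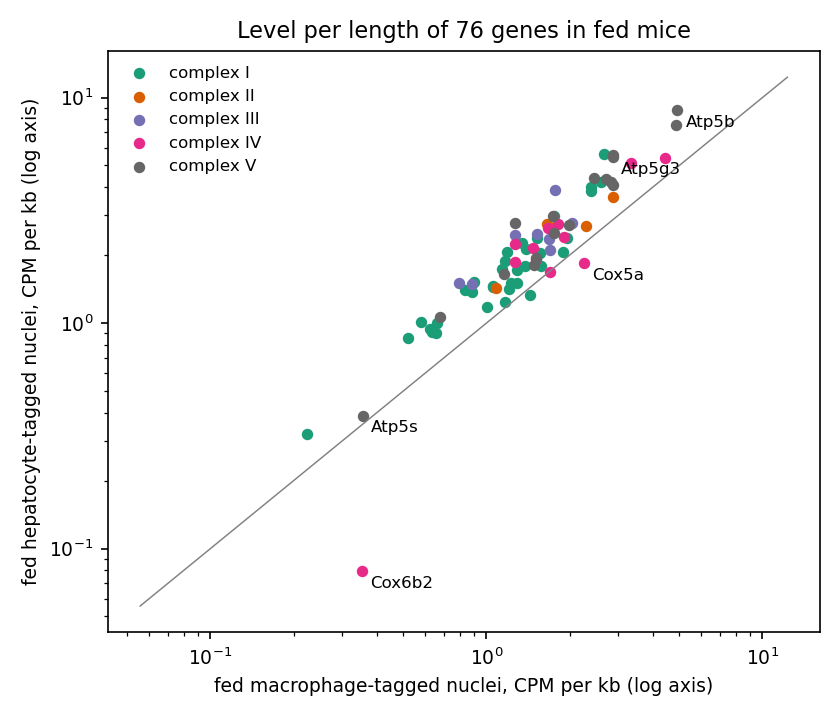
Mean level per length in fed mice of the 76 tested genes, hepatocyte-tagged nuclei on the vertical axis and macrophage-tagged nuclei on the horizontal axis, both in CPM per kb on log axes, 16 libraries each, coloured by complex. The grey line marks equal levels, and Cox6b2 and Cox5a are among the few genes on the macrophage side of it.

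Fed hepatocyte nuclei held more RNA of the respiratory chain than fed macrophage nuclei. Of 76 genes tested, 71 were higher and 2 lower, against 42.7% of all 14011 genes higher and 40% lower, and the median log2 difference was 0.62 against 0.05 over all genes (edgeR quasi-likelihood test, adjusted p under 0.05). All 4 genes of complex II and all 8 of complex III were higher. In nuclei, a smaller number of transcribing cells and less RNA per cell cannot be told apart, and the cell types also differ in mouse line and in library series, which cannot be told apart from the cell type either.

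The highest differences were 1.18 ± 0.12 for Atp5g1, 1.17 ± 0.09 for Uqcrq, a small subunit of complex III, and 1.13 ± 0.08 for Ndufa6, an accessory subunit of complex I (log2 and SE, adjusted p at most 1.05e-13, no overlap of libraries). At the other end, Cox6b2 differed by -2.42 ± 0.39 and Cox5a, another subunit of complex IV, by -0.24 ± 0.08, with overlapping libraries for both (adjusted p 2.11e-07 and 0.00475). Ndufa9, a subunit at the junction of the complex I arms, was higher by only 0.11 ± 0.04 (adjusted p 0.0123), and this call was lost with RLE scaling and with DESeq2. Atp5s, Cox7a2l and Ndufs8 did not pass the test.

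The comparison of tagged nuclei with unpurified liver gave opposite directions in the lines. In hepatocyte-tagged nuclei, 40 of 76 genes were higher than in the pools and 0 lower, against 28.9% of all 13065 genes higher and 20.5% lower. The log2 differences were small, with a median of 0.18 against 0.12 over all genes. The highest were 0.42 ± 0.10 for Cox5b, 0.41 ± 0.11 for Atp5sl and 0.32 ± 0.07 for Cox7c (adjusted p at most 0.00247). The lowest called were 0.15 ± 0.05 for Sdha, 0.17 ± 0.05 for Ndufs4 and 0.17 ± 0.07 for Atp5b (adjusted p at most 0.0332). The call of Atp5b was lost with RLE scaling, with DESeq2, without the filter on low counts and without any of 5 single pools. All 4 genes of complex II, succinate dehydrogenase, were called higher.

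In macrophage-tagged nuclei, 63 of 76 genes were lower than in the pools and 3 higher, against 40% of all 13679 genes lower and 37.2% higher. The median log2 difference was -0.36, beside -1.23 for the 15 hepatocyte markers, all of which were lower, and 4.23 for the 14 macrophage markers, all of which were higher. The lowest were -0.93 ± 0.09 for Ndufa6, -0.81 ± 0.10 for Uqcrq and -0.76 ± 0.09 for Ndufa5 (adjusted p at most 3.14e-09). The 3 genes higher in macrophage-tagged nuclei all belong to complex IV by symbol: Cox6b2 at 1.03 ± 0.38, Cox5a at 0.48 ± 0.08 and Cox7a2l at 0.17 ± 0.06 (adjusted p 0.0138, 5.73e-07 and 0.0145). The call of Cox6b2 was lost without the fed pool of 3 h (adjusted p 0.0598) and that of Cox7a2l without the fed pool of 8 h (adjusted p 0.0561).

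**Figure D2:**
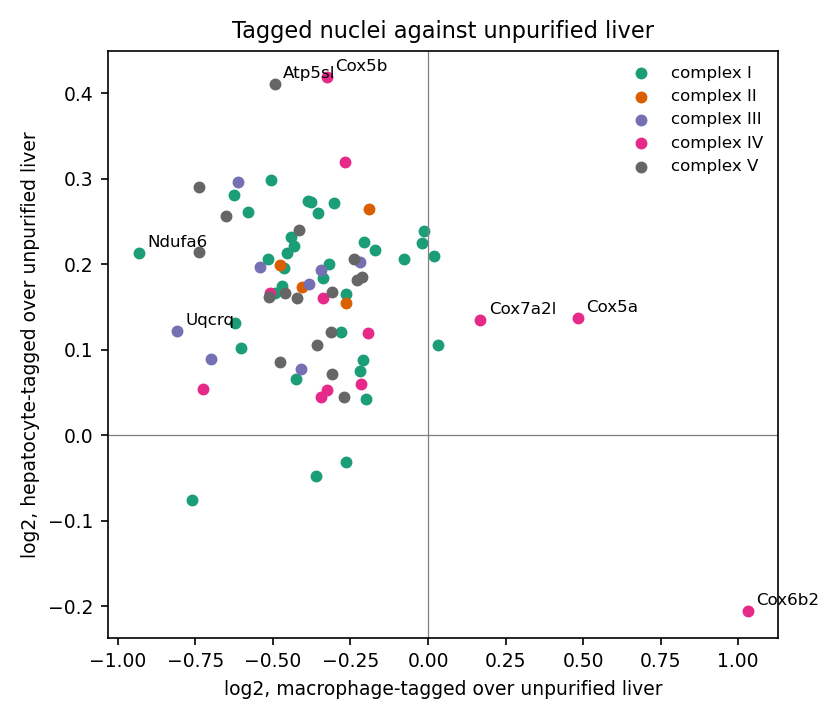
Log2 difference of tagged nuclei over unpurified liver for 76 genes, hepatocyte-tagged on the vertical axis and macrophage-tagged on the horizontal axis, coloured by complex. Most genes lie above 0 on the hepatocyte axis and below 0 on the macrophage axis, and Cox6b2, Cox5a and Cox7a2l lie to the right of 0.

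Fasting raised the respiratory chain genes as a group in hepatocyte nuclei at 3 and 8 h. The summed level of the 83 genes was 2138, 1996, 2283 and 2132 CPM in hepatocyte nuclei fasted for 3 h, against 1670, 1659, 1662 and 1610 CPM in fed ones. At 8 h it was 2042, 2217, 2258 and 2477 CPM in fasted and 1586, 1619, 1515 and 1633 CPM in fed libraries. The fasted and fed libraries did not overlap at either time.

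At 16 h the sums were 1910, 1875, 2517 and 2140 CPM in fasted and 1719, 1711, 1879 and 1784 CPM in fed libraries, so that the lowest fasted library fell just under the highest fed one. At 24 h they were 2160, 2136, 2118 and 2212 CPM in fasted and 1855, 2016, 2089 and 2158 CPM in fed libraries, which overlapped. The fasted means, 2137 ± 117, 2248 ± 179, 2111 ± 295 and 2156 ± 41 CPM at 3, 8, 16 and 24 h, lay close together. The fed means, 1650 ± 27, 1588 ± 53, 1773 ± 78 and 2029 ± 130 CPM, were highest at 24 h, and the gap between fasted and fed was smallest there (SD, n = 4 each).

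**Figure D3:**
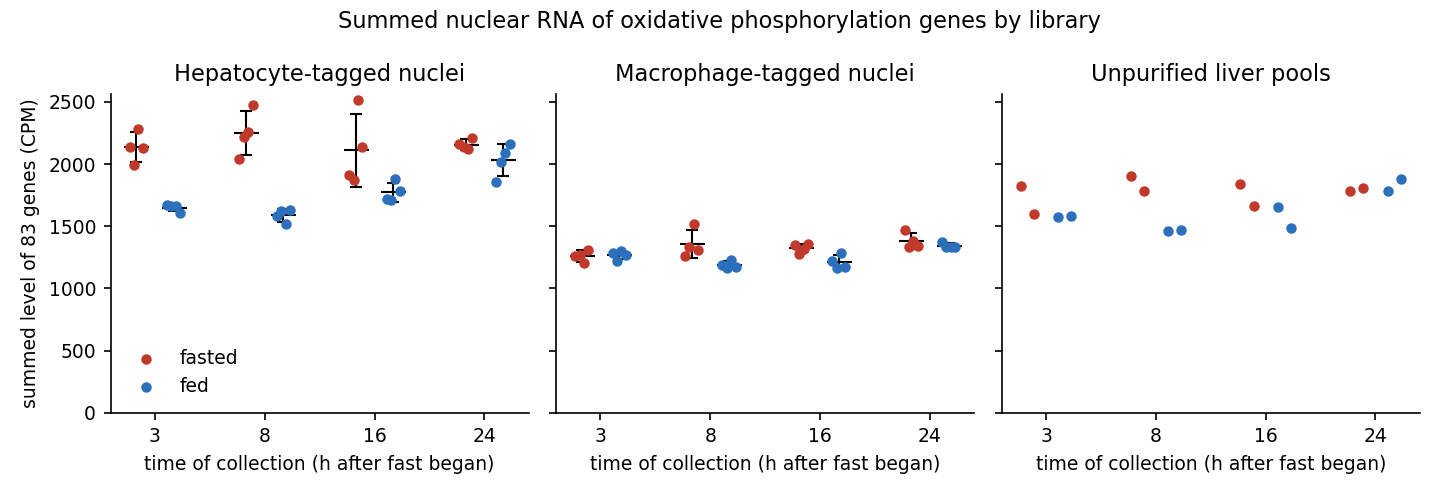
Summed level of the 83 genes in CPM for each library by time of collection, fasted in red left of fed in blue, in hepatocyte-tagged nuclei, macrophage-tagged nuclei and unpurified pools. Points are libraries and black bars the mean and SD of 4 libraries (the pools, 1 per line, have no bar), and fasted and fed hepatocyte libraries separate at 3 and 8 h.

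Counted gene by gene at 3 h, 29 of 76 genes rose and 1 fell, while 19.5% of all 12942 genes tested rose and 20.4% fell. The share called, 39.5%, was close to the 39.9% of all genes, and what differed from the background was the direction: 38.2% rose. The median log2 fold change was 0.28, against -0.03 over all genes, and 66 of 76 were above 0. Complex V had 9 of 17 rising, complex III 4 of 8, complex I 12 of 35, complex IV 3 of 12 and complex II 1 of 4. In 41 genes all fasted libraries lay above all fed ones, 53.9% of those tested beside 24.1% of all genes.

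At 8 h, 42 of 76 genes rose and 0 fell, while 18% of all genes rose and 20.7% fell. The median was 0.37 against -0.02 over all genes. Rising genes were 16 of 35 in complex I, 3 of 4 in complex II, 4 of 8 in complex III, 8 of 12 in complex IV and 11 of 17 in complex V. Of the 29 genes that rose at 3 h, 23 rose again at 8 h, which is 79.3% of the 3 h genes and 54.8% of the 8 h genes. Over all genes these shares were 55.8% and 60.2%.

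At 16 h, 19 genes rose and 1 fell, while 9.54% of all genes rose and 8.55% fell, with a median of 0.23. This count rests on few libraries: it dropped to 5 called without fed replicate 2, 6 without fasted replicate 3, whose sum of 2517 CPM was the highest of all, 8 without fed replicate 1, 11 without fed replicate 4 and 12 without fasted replicate 4, and to 2 in a fit to the 8 libraries of 16 h alone. At 24 h, 4 rose and 2 fell, while 11.6% of all genes rose and 12.4% fell, with a median of 0.07. Without fed replicate 2 the 24 h count was 3. No share of all genes called is given for these reduced fits. A drop particular to these genes cannot be told apart from a general one. Of the 19 genes that rose at 16 h, 15 had risen at 8 h and 4 at 3 h, or 78.9% and 21.1%, beside 55.6% and 31.5% over all genes. Those 4, which rose at 3, 8 and 16 h alike, were Atp5c1, the gamma shaft of ATP synthase, Ndufa4, Ndufs7, an iron-sulfur subunit of complex I, and Uqcrc2, a core subunit of complex III. The 16 h call of Atp5c1 was lost without fasted replicate 3 or fed replicate 2 and in a fit to the 8 libraries of 16 h alone (adjusted p 0.0591 to 0.171). Over the 4 times 52 genes rose at least at 1 time and 22 were called at none, among them Cox6a1, Cox7a2, Cox8a, Sdhb and Uqcrfs1, the Rieske protein of complex III. Among all genes tested in both cell types, at most the 12942 tested in hepatocyte nuclei, 4478 rose there at least at 1 time. The share of all genes called at no time was not taken.

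Markers were not level in these contrasts. Hepatocyte markers summed to 19102 to 28895 CPM in libraries fasted for 3 h, against 12386 to 16011 CPM in fed ones, and macrophage markers to 46.2 to 98.9 against 47.2 to 78.9 CPM. At 8 h hepatocyte markers summed to 11861 to 31764 CPM in fasted and 12710 to 15144 CPM in fed libraries. Macrophage markers summed to 72.3 to 112.9 CPM in fasted and 48.9 to 57.6 CPM in fed libraries at 8 h, and 5 of 13 were called higher. Of 10 endothelial markers 1 was called higher at 3 h and 3 at 8 h, and of 9 stellate cell markers 1 was called lower at each of these times. Of 4 tested cholangiocyte markers 0 were called at 3 h and 1, which was lower, at 8 h, and no lymphocyte marker passed the filter. At 16 h hepatocyte markers summed to 9880 to 16143 CPM in fasted and 14224 to 16887 CPM in fed libraries, and stellate cell markers to 45.1 to 66.3 CPM in fasted and 94.0 to 152.7 CPM in fed libraries, without overlap. At 24 h hepatocyte markers summed to 21928 to 30326 CPM in fasted and 16065 to 25679 CPM in fed libraries, and macrophage markers to 62.7 to 68.5 CPM in fasted and 37.6 to 64.1 CPM in fed ones. Their part in the result was not tested. Over the 76 genes, Spearman's rho between the log2 fold change and the length of the gene body was -0.11 at 3 h and 0.08 at 8 h in hepatocyte nuclei. In macrophage nuclei it was 0.38, -0.37, 0.27 and -0.12 at 3, 8, 16 and 24 h. These values are a description across genes of the same libraries.

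**Figure D4:**
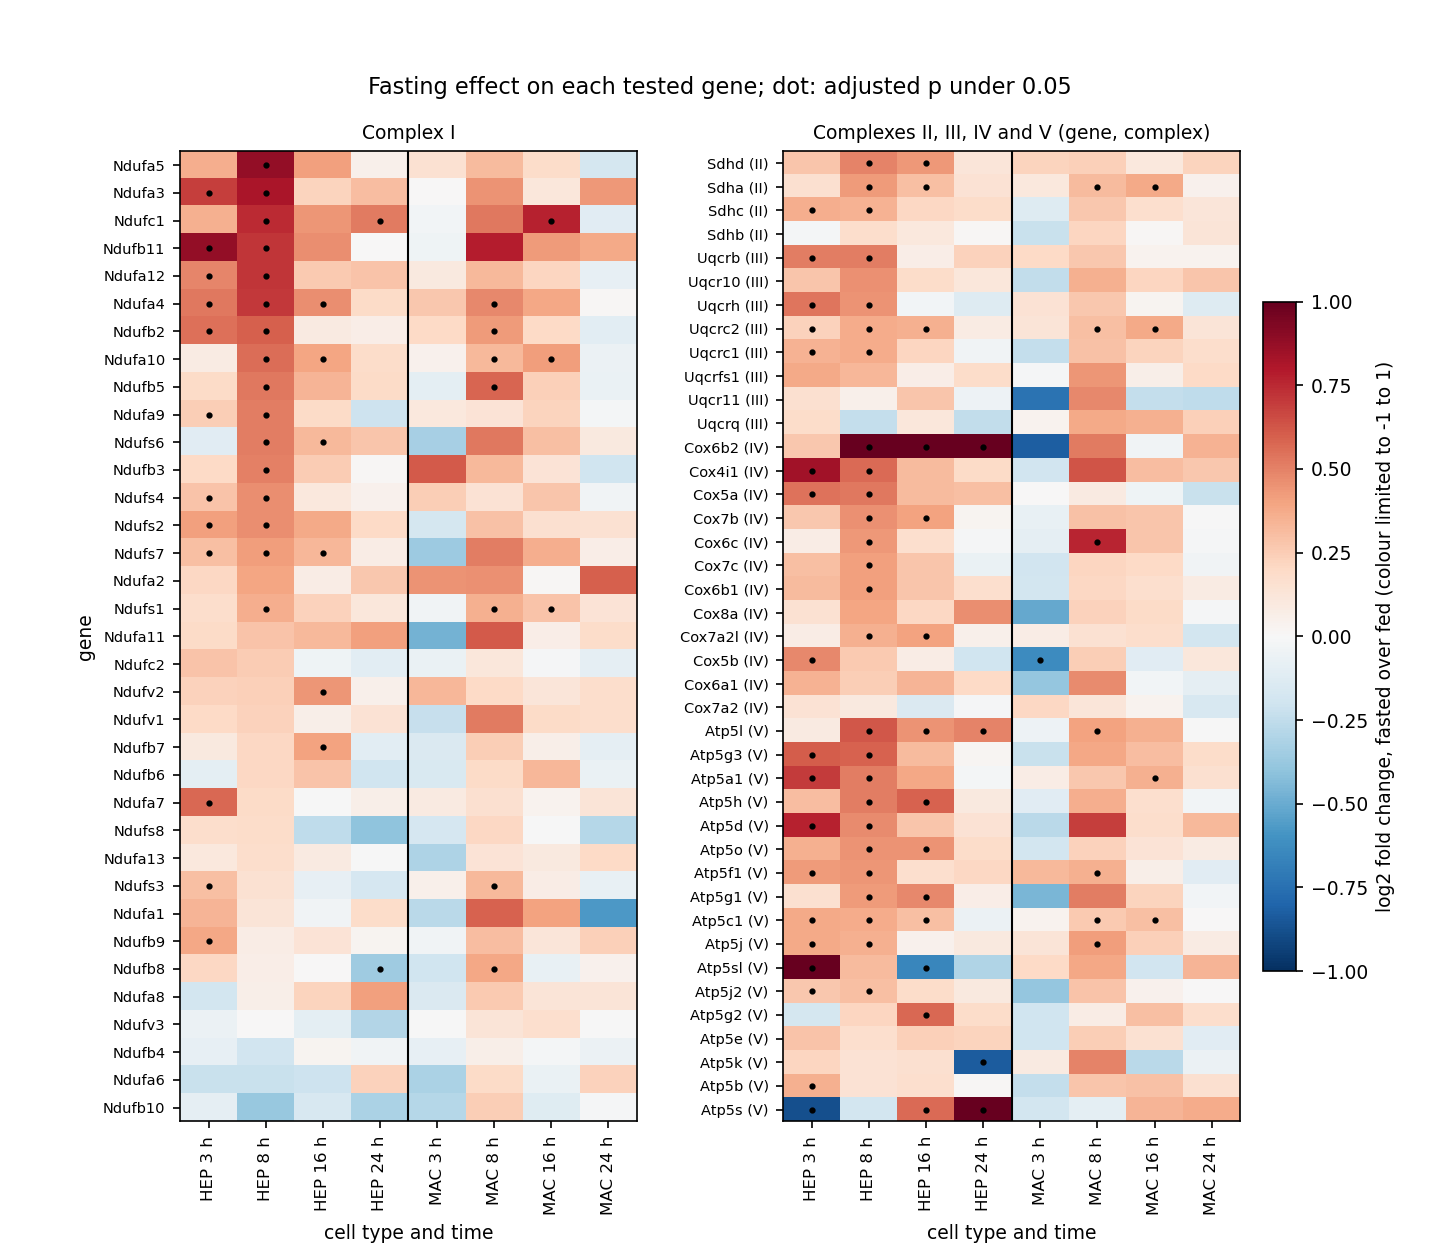
Log2 fold change of fasted over fed libraries for the 76 tested genes at 4 times in hepatocyte-tagged (HEP) and macrophage-tagged (MAC) nuclei, colour limited to between -1 and 1, complex I on the left and the other complexes on the right. A dot marks an adjusted p under 0.05: dots are densest in the hepatocyte columns for 3 and 8 h, with 30 and 42, and there are none in the macrophage column for 24 h.

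Among the structural subunits at 3 h the largest rises were those of Ndufb11 and Cox4i1. Ndufb11, an X-linked membrane arm subunit of complex I, had 7.05, 7.48, 8.06 and 8.15 CPM in fasted and 4.18, 4.22, 3.69 and 3.77 CPM in fed libraries, a log2 fold change of 0.88 ± 0.19 (adjusted p 0.000443). Its row on the minus strand overlaps Rbm10 on the opposite strand, and whether the counting used the strand is not stated in the labels. Cox4i1, the regulatory subunit of complex IV that binds ATP, had 19.0, 21.4, 21.5 and 24.4 CPM in fasted and 12.7, 9.71, 11.8 and 11.7 CPM in fed libraries, a log2 fold change of 0.84 ± 0.16 (adjusted p 0.000152). In both genes every fasted library was above every fed one. In the annotation, Cox4i1 also overlaps Emc8 on the opposite strand and Gm20388 on its own strand.

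Atp5d, the delta subunit of the ATP synthase rotor, rose at 3 h with a narrow spread: 29.4, 26.4, 29.2 and 33.2 CPM in fasted and 15.7, 16.7, 16.1 and 17.5 CPM in fed libraries, 0.77 ± 0.11 on the log2 scale (adjusted p 4.42e-06). The smallest called rises were those of Uqcrc2, 0.23 ± 0.09 (adjusted p 0.0467), which missed the threshold without a filter on low counts and without fasted replicate 3 or fed replicate 4, and of Ndufa9, 0.25 ± 0.09 (adjusted p 0.0239), which missed it without fasted replicate 3. At 8 h the largest rises, leaving out genes whose mean was under 1 CPM, were in complex I. Ndufa5, of the peripheral arm, had 10.2, 10.8, 10.3 and 18.1 CPM in fasted and 5.89, 5.23, 5.48 and 7.80 CPM in fed libraries (0.88 ± 0.21, adjusted p 0.00131). Fasted replicate 4 stood apart at 18.1 CPM, and the other 3 fasted libraries still lay above all fed ones.

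Ndufa3, an accessory subunit of complex I, rose by 0.81 ± 0.16 at 8 h, with 7.27, 10.4, 8.82 and 12.4 CPM in fasted and 5.66, 4.59, 4.33 and 5.54 CPM in fed libraries (adjusted p 0.000164). Ndufc1, a small accessory subunit whose window above holds the YY1 letters, had 6.0, 4.50, 6.10 and 5.64 CPM in fasted and 3.70, 2.81, 3.31 and 2.41 CPM in fed libraries (0.74 ± 0.17, adjusted p 0.00101). Fasted and fed libraries were apart in both. The smallest called rises at 8 h were 0.30 ± 0.10 for Atp5j2, 0.35 ± 0.11 for Sdhc and 0.35 ± 0.14 for Cox7a2l (adjusted p 0.0177, 0.0137 and 0.0467). The call of Sdhc was lost without fasted replicate 4 (adjusted p 0.0896), and that of Cox7a2l without fasted replicate 1 or 3 or fed replicate 1, 3 or 4 (adjusted p 0.0516 to 0.145).

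At 16 h the highest calls, with the same level minimum, were in ATP synthase. Atp5h, the d subunit of the stalk, had 19.5, 21.8, 28.0 and 19.7 CPM in fasted and 13.8, 13.4, 17.3 and 13.5 CPM in fed libraries (0.59 ± 0.14, adjusted p 0.00312). Atp5g2, a c subunit gene, had 26.7, 22.6, 23.5 and 17.4 CPM in fasted and 14.3, 14.2, 16.1 and 14.9 CPM in fed libraries (0.58 ± 0.13, adjusted p 0.00184). No fed library of either gene reached the fasted ones. The c subunit genes were called at different times: Atp5g3 was called at 3 and 8 h (0.61 ± 0.16 and 0.59 ± 0.16), Atp5g1 at 8 and 16 h (0.42 ± 0.16 and 0.48 ± 0.16) and Atp5g2 at 16 h, and of these only Atp5g2 had an effect that differed between times by an F-test (adjusted p 0.0135). The calls of Atp5g1 each rested on several libraries: that at 8 h was lost without fasted replicate 2 or 3 or fed replicate 3 or 4, and that at 16 h without fasted replicate 3 or 4 or fed replicate 1, 2 or 4.

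At 24 h the structural subunits called higher were Ndufc1 (0.52 ± 0.17), Atp5l, the g subunit of the membrane part (0.49 ± 0.14), and Cox6b2. Ndufc1 had 5.19, 5.46, 5.21 and 5.62 CPM in fasted and 3.00, 3.99, 4.38 and 3.42 CPM in fed libraries. Atp5k, the e subunit involved in pairing of ATP synthases, was lower, with 2.29, 2.69, 2.80 and 2.93 CPM in fasted and 4.40, 6.80, 4.00 and 3.79 CPM in fed libraries (-0.83 ± 0.25, adjusted p 0.0172). Ndufb8, of the complex I membrane arm, was lower too, at -0.35 ± 0.13 on the log2 scale (adjusted p 0.0404). In Ndufc1, Atp5l, Atp5k and Ndufb8 fasted and fed libraries did not overlap.

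Most of these 24 h calls were close to the threshold. Ndufc1 lost its call without fasted replicate 2 or 4 or fed replicate 1 or 4 (adjusted p 0.0526 to 0.113) and in a fit to the 8 libraries of 24 h (adjusted p 0.0515). Atp5l lost it without fed replicate 2 (adjusted p 0.0537), and Atp5k without fasted replicate 1 or fed replicate 2 (adjusted p 0.0548 and 0.0836). Ndufb8 lost it without the filter on low counts, in a fit to the 8 libraries and without fasted replicate 1, 2 or 4 or fed replicate 2, 3 or 4 (adjusted p 0.057 to 0.0992).

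Succinate dehydrogenase, complex II, has 4 genes, and 3 of them were called. Sdha, the flavoprotein, was called at 8 h (0.42 ± 0.09) and 16 h (0.30 ± 0.09), and Sdhd, a membrane anchor, at 8 h (0.50 ± 0.13) and 16 h (0.43 ± 0.12). Sdhc, the other anchor, was called at 3 h (0.37 ± 0.11) and 8 h (0.35 ± 0.11). Sdhb, the iron-sulfur subunit, was called at no time and had log2 fold changes between -0.02 and 0.18. For none of the 4 did the effect pass the F-test for a difference between times. Both 16 h calls were lost without fasted replicate 3 or fed replicate 1 or 2 (adjusted p 0.0523 to 0.106). In a fit to the 8 libraries of 16 h they were lost too (adjusted p 0.163 for Sdha and 0.148 for Sdhd). The 8 h call of Sdhc was lost in a fit to the 8 libraries of 8 h (adjusted p 0.066).

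Cox6b2 had the largest fold changes and was also among the least abundant of the tested genes. It passed the filter on low counts in hepatocyte nuclei through its fasted libraries alone, since no fed library had more than 0.336 CPM. The gene lies at mm10 chr7:4751792-4753094 on the minus strand and is the testis form of a subunit that joins complex IV monomers. In hepatocyte nuclei at 8 h it had 1.91, 0.913, 1.15 and 1.79 CPM in fasted and 0.336, 0.0574, 0.135 and 0.103 CPM in fed libraries, in counts 105 against 11 over 4 libraries each. At 16 h it had 0.233, 2.04, 1.61 and 0.614 CPM in fasted and 0.0498, 0.0628, 0.260 and 0.0467 CPM in fed libraries, 92 against 7 counts, with 1 fasted library below the highest fed one. At 24 h it had 0.606, 0.256, 0.683 and 0.977 CPM in fasted libraries, while 3 of the 4 fed libraries had no count and the other 0.0534 CPM, 46 counts against 1. At 8 and 24 h no fed library reached a fasted one.

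The ratio of Cox6b2 in fasted over fed hepatocyte libraries, from summed counts and library totals, was 9.37 at 8 h (95% counting interval 5.03 to 19.3), 12.1 at 16 h (5.64 to 30.9) and 39.0 at 24 h (6.66 to 1574). At 3 h it was 1.30 (0.520 to 3.22), from 11 against 12 counts. These intervals come from an exact binomial test and cover counting error only. By the edgeR test the adjusted p was 0.815 at 3 h, 0.000222 at 8 h, 0.000458 at 16 h and 0.000635 at 24 h, and the last 3 calls were kept without any 1 library and, at adjusted p 0.000224, 0.000484 and 0.000564, in fits with no filter. In fits to the 8 libraries of 16 h or of 24 h alone, Cox6b2 gave no value. In the pools it had too few counts for the filter. It stood at 0.485, 0.696, 1.17 and 0.789 CPM in fasted and 0.257, 0.275, 0 and 0.155 CPM in fed pools of the hepatocyte line at 3, 8, 16 and 24 h. In the macrophage line it stood at 0.416, 0.398, 0.362 and 0.352 CPM in fasted and 0.0279, 0.121, 0.0489 and 0.124 CPM in fed pools. Every fasted pool was above every fed pool.

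In macrophage nuclei Cox6b2 was not called. Its lowest and highest libraries over the 4 times were 0 and 1.0 CPM among the fasted and 0.171 and 0.860 CPM among the fed, and none of the 4 contrasts passed the test, with adjusted p between 0.32 and 0.973. Its paralog Cox6b1, the common form, rose in hepatocyte nuclei at 8 h by 0.41 ± 0.14 (adjusted p 0.0207) and was not called at another time. That call was lost without fasted replicate 3 or 4 or fed replicate 3 (adjusted p 0.0509 to 0.0746). Cox4i1 was called at 3 and 8 h and Cox7b at 8 and 16 h (0.45 ± 0.12 and 0.40 ± 0.12), the 16 h call of Cox7b being lost without fasted replicate 1 or 3 or fed replicate 1 or 2, while Cox6a1, Cox7a2 and Cox8a were called at none, with fold changes between -0.14 and 0.47.

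Atp5sl and Atp5s, the pair of rows that are not subunits of the enzyme, moved in opposite directions at 3 and 16 h. Atp5sl, the complex I assembly gene at mm10 chr7:25619414-25625550 on the plus strand, had 31.6, 42.8, 51.7 and 40.9 CPM in hepatocyte nuclei fasted for 3 h and 18, 15.3, 12.1 and 13.6 CPM in fed ones (1.43 ± 0.22, adjusted p 8.13e-06). At 16 h it had 22.4, 24.8, 10.9 and 16.1 CPM in fasted and 30.4, 30.4, 22.3 and 31.1 CPM in fed libraries (-0.65 ± 0.22, adjusted p 0.0343). The libraries were apart at 3 h and overlapped at 16 h, and the call at 16 h was lost without fasted replicate 3 or 4 or fed replicate 1, 2 or 4 (adjusted p 0.08 to 0.158). A fit to the 8 libraries of 16 h lost it as well (adjusted p 0.143).

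Atp5s, the coupling factor gene at mm10 chr12:69724962-69744658 on the plus strand, had 5.15, 4.12, 3.93 and 2.74 CPM in nuclei fasted for 3 h and 7.97, 7.43, 6.19 and 6.42 CPM in fed ones (-0.88 ± 0.19, adjusted p 0.000446). At 16 h it had 20.3, 18.2, 15.3 and 12.5 CPM in fasted and 12.8, 9.66, 10.7 and 10.7 CPM in fed libraries (0.57 ± 0.18, adjusted p 0.0241). At 24 h it had 12.5, 11.6, 14.5 and 10.4 CPM in fasted and 5.0, 4.76, 6.85 and 6.57 CPM in fed libraries (1.06 ± 0.18, adjusted p 0.000124). It was lower in every fasted library at 3 h and higher in every fasted library at 24 h, and the groups overlapped at 16 h. The 16 h call was lost without fasted replicate 1 or 2 or fed replicate 2 or 4 (adjusted p 0.0517 to 0.0876) and in a fit to the 8 libraries of 16 h (adjusted p 0.0822).

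These genes led the test for an effect that differs between times, with adjusted p 1.74e-05 for Atp5s and 4.92e-05 for Atp5sl. Ndufa9 followed at 0.00062 and Atp5g2 at 0.0135. In all 15 of the 76 genes passed this test, or 19.7%, against 32.8% of all genes.

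**Figure D5:**
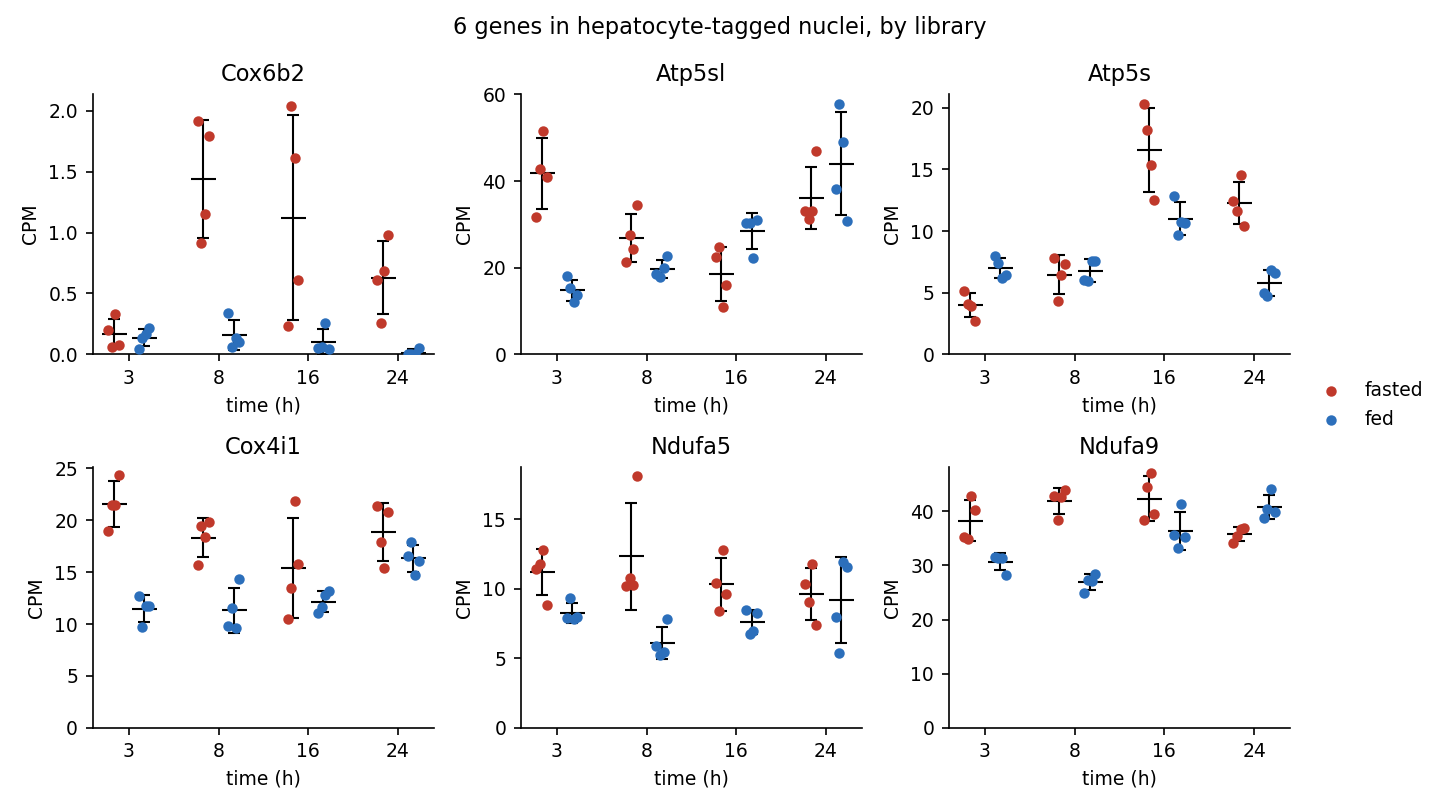
Levels in CPM of Cox6b2, Atp5sl, Atp5s, Cox4i1, Ndufa5 and Ndufa9 in each hepatocyte-tagged library by time, fasted in red left of fed in blue, with the mean and SD of 4 libraries in black. Cox6b2 is near 0 in fed libraries at all times, and Atp5s changes from lower to higher in fasted libraries between 3 and 24 h.

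Time of day in fed hepatocytes was tested with an F-test over the 4 fed groups. It called 23 of 76 genes, or 30.3%, a share near the 30.1% of all genes. Atp5sl in fed libraries averaged 14.8 ± 2.5, 19.7 ± 2.1, 28.6 ± 4.2 and 44.0 ± 11.9 CPM at 3, 8, 16 and 24 h, which are zeitgeber times 15, 20, 4 and 12 (SD, n = 4 each, edgeR adjusted p 1.86e-05). Ndufa9 in fed libraries averaged 30.7 ± 1.6, 27.0 ± 1.5, 36.3 ± 3.4 and 40.8 ± 2.3 CPM at these times (edgeR adjusted p 0.000126). In fasted libraries Ndufa9 averaged 38.3 ± 3.9, 41.9 ± 2.4, 42.4 ± 4.1 and 35.8 ± 1.3 CPM, and the fold changes were called at 3 and 8 h. At 24 h its 4 fasted libraries, 34.1 to 36.9 CPM, lay below its 4 fed libraries, 38.8 to 44.1 CPM, at -0.21 ± 0.09 on the log2 scale (adjusted p 0.0852, not called). Atp5s in fed libraries was highest at 16 h, with 11 ± 1.3 CPM, and Ndufa7 and Atp5s were the other genes with the smallest p (edgeR adjusted p 0.000519 and 0.00157).

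In macrophage nuclei the share of these genes that rose was well above that of all genes at 8 h, 18.4%, and near it at 16 h, 9.21%. The summed level of the 83 genes at 8 h was 1260, 1333, 1519 and 1307 CPM in fasted and 1192, 1164, 1230 and 1170 CPM in fed libraries, without overlap. At 16 h it was 1347, 1276, 1317 and 1356 CPM in fasted and 1223, 1168, 1284 and 1170 CPM in fed libraries, which overlapped by 1 library. At 3 h it was 1201 to 1312 CPM in fasted and 1220 to 1297 CPM in fed libraries, and at 24 h 1336 to 1466 against 1332 to 1372 CPM.

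At 8 h, 14 of 76 genes rose and 0 fell, while 7.44% of all 13864 genes rose and 5.4% fell, with a median of 0.30 against 0.01. Of the 76 fold changes, 75 were above 0. At 16 h, 7 rose and 0 fell, while 7.72% of all genes rose and 5.99% fell, with a median of 0.17 against 0.04. At 3 h, 0 rose and 1 fell, while 7.7% of all genes rose and 4.68% fell. At 24 h none of the 76 was called by edgeR, while 5.31% of all genes rose and 6.35% fell, with 3 at an unadjusted p under 0.05 and 1 called by DESeq2. Of the 16 genes that rose in macrophage nuclei at any time, 15 also rose in hepatocyte nuclei at some time, which is 93.8% of the macrophage genes and 28.8% of the 52 hepatocyte genes. Over all genes tested in both cell types these shares were 75.4% and 42.4%.

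Hepatocyte markers moved with this contrast. They summed to 8394 to 10390 CPM in macrophage-tagged libraries fasted for 8 h and to 4301 to 6390 CPM in fed ones, and 8 of 15 were called higher, with a median log2 fold change of 0.84. With the summed hepatocyte marker level of each library as a term, chosen after seeing the data, the counts of rising genes were 2 at 8 h and 6 at 16 h, and the medians 0.31 and 0.19. No share of all genes is given with this term, which was itself higher in every fasted library of 8 h. A lower count particular to these genes cannot be told apart from a general one. Of 10 endothelial markers, 4 were called higher at 8 h. The 8 h count also rests on few libraries. Without fasted replicate 3, which had the highest sum of 1519 CPM and the lowest macrophage marker sum of its group, 4585 CPM, no gene was called. Without fasted replicate 2, fed replicate 1 or fed replicate 2 the count was 6, and without fed replicate 4 it was 8. A share of all genes is not given for these fits either.

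The highest at 8 h was Cox6c, a small subunit of complex IV, with 8.74, 9.25, 14.0 and 9.79 CPM in fasted and 6.80, 6.71, 7.38 and 5.57 CPM in fed macrophage libraries (0.76 ± 0.19, adjusted p 0.00859). Ndufb5, of the complex I membrane arm, had 21.2, 23.7, 31.4 and 19.1 CPM in fasted and 17.1, 15.4, 19.0 and 16.8 CPM in fed libraries (0.58 ± 0.14, adjusted p 0.00753). Both had their highest value in the same fasted library, replicate 3, and in both the groups were apart. Ndufa4 followed with 0.48 ± 0.14, and the smallest called rises were 0.26 ± 0.07 for Atp5c1, 0.30 ± 0.10 for Uqcrc2 and 0.32 ± 0.08 for Sdha (adjusted p at most 0.0411). With the hepatocyte marker term each of these 6 fell short of the threshold, with adjusted p between 0.0687 for Ndufb5 and 0.504 for Ndufa4. Their log2 fold changes with that term were 0.61 for Cox6c, 0.52 for Ndufb5 and 0.25 for Atp5c1, and 0.16 for Ndufa4, 0.16 for Uqcrc2 and 0.20 for Sdha.

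At 16 h Ndufc1 was highest, with 3.29, 2.49, 2.60 and 3.78 CPM in fasted and 1.73, 1.97, 1.79 and 2.07 CPM in fed macrophage libraries (0.77 ± 0.19, adjusted p 0.00695). Ndufa10, of the complex I membrane arm, rose by 0.42 ± 0.11, Uqcrc2 by 0.38 ± 0.10 and Atp5a1 by 0.35 ± 0.10 (adjusted p at most 0.0165), and the smallest was Ndufs1, the largest iron-sulfur subunit of complex I, at 0.29 ± 0.09. Atp5c1, Ndufa10, Ndufs1, Sdha and Uqcrc2 rose at both 8 and 16 h. Without fasted replicate 1, 3 genes were called at 16 h, and Ndufs1 also lost its call without fasted replicate 4 or any of the 4 fed libraries and with the hepatocyte marker term (adjusted p 0.0512 to 0.11). Atp5a1 lost its call without fasted replicate 1 or fed replicate 2 or 4 (adjusted p 0.0502 to 0.0817). In a fit to the 8 libraries of 16 h alone, Ndufa10, Uqcrc2, Ndufs1, Atp5c1, Atp5a1 and Sdha were not called (adjusted p 0.0505 to 0.101).

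At 3 h Cox5b, a zinc-binding subunit of complex IV, was the gene that fell in macrophage nuclei, with 4.12, 5.05, 1.86 and 4.62 CPM in fasted and 6.34, 6.19, 6.22 and 5.96 CPM in fed libraries (-0.63 ± 0.20, adjusted p 0.0395). All fasted libraries were below the fed ones. The lowest, replicate 3, is the library with the highest hepatocyte marker sum, and without it the call was lost (adjusted p 0.128), as it was with the hepatocyte marker term (adjusted p 0.322), without the filter on low counts (adjusted p 0.056), in a fit to the 8 libraries of 3 h (adjusted p 0.306) and without any of the 4 fed libraries (adjusted p 0.0611 to 0.0862). With the run of library numbers as a term it was lost as well (-0.62, adjusted p 0.0542), and 1 other gene was called, Ndufv2, which was higher in fasted libraries (0.33, adjusted p 0.0293). The count of called genes at 3 h was 4 without fasted replicate 1, 6 without fasted replicate 2 and 0 without fasted replicate 3 or any fed library. No gene passed the test for an effect that differs between times in macrophage nuclei, with 17 at an unadjusted p under 0.05, 4.65% of all genes called and the smallest adjusted p 0.0723, for Ndufc1. Time of day in fed macrophage nuclei called 13 of 76 genes, or 17.1%, against 12.8% of all genes, with Ndufa4, Atp5c1, Ndufs3 and Atp5f1 at the smallest adjusted p, 0.0013 to 0.0105.

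The difference of the fasting effects, hepatocyte minus macrophage, was tested in a fit to all 64 tagged libraries. At 3 h, 13 of 76 genes differed, all in the direction of a higher effect in hepatocytes, while 6.21% of all 14011 genes differed upward and 4.4% downward. The median difference was 0.40 against 0.04 over all genes. At 8 h 2 genes differed and at 16 and 24 h 1 each, all upward, while 3.86%, 0.407% and 2.1% of all genes differed upward at these times and 3.76%, 0.128% and 1.95% downward.

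The highest differences at 3 h were 1.28 ± 0.30 for Atp5sl, 1.15 ± 0.26 for Cox5b and 1.07 ± 0.26 for Atp5d (adjusted p at most 0.00507). For Cox5b this joined a rise of 0.48 ± 0.17 in hepatocyte nuclei with -0.63 ± 0.20 in macrophage nuclei. The macrophage value was -0.41 without fasted replicate 3, where its call was lost (adjusted p 0.128), and the difference was not fitted without that library. For Atp5d it joined 0.77 ± 0.11 in hepatocyte nuclei with -0.27 ± 0.24 in macrophage nuclei, which did not pass the test. The smallest called were 0.39 ± 0.11 for Atp5c1, 0.54 ± 0.15 for Ndufa7 and 0.62 ± 0.17 for Uqcrc1, a core subunit of complex III (adjusted p at most 0.0135). At 8 h the genes were Ndufa9 (0.45 ± 0.12, adjusted p 0.013) and Cox6b2 (2.59 ± 0.85, adjusted p 0.047), and at 16 and 24 h Cox6b2 (3.55 ± 0.87 and 4.54 ± 1.20, adjusted p 0.0415 and 0.0222). The fitted Cox6b2 values rest on the few fed counts given above, and its calls at 8 and 16 h were lost without a filter on low counts (adjusted p 0.061 and 0.0502).

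In unpurified liver the mean fasting effect over the 4 times was tested with line as a term. It called 12 of 75 genes higher and 0 lower, while 12.4% of all 13006 genes were higher and 15.1% lower, with a median of 0.11 against -0.01. The highest were 0.43 ± 0.12 for Ndufc1, 0.38 ± 0.08 for Ndufb2 and 0.37 ± 0.11 for Ndufb11, and the smallest called 0.20 ± 0.06 for Ndufv2, 0.21 ± 0.07 for Atp5j and 0.21 ± 0.06 for Ndufs7 (adjusted p at most 0.0434). These last 3 calls were each lost without single pools, 6 for Ndufv2, 8 for Atp5j and 4 for Ndufs7 (adjusted p 0.0501 to 0.101), and that of Atp5j without the filter on low counts (adjusted p 0.054). Ndufc1 stood at 3.88, 6.14, 4.38 and 4.94 CPM in fasted and 3.40, 3.02, 3.26 and 3.57 CPM in fed pools of the hepatocyte line at 3, 8, 16 and 24 h. In the macrophage line it stood at 3.43, 4.87, 4.40 and 4.72 CPM in fasted and 2.4, 3.63, 2.88 and 5.03 CPM in fed pools, with the fed pool higher at 24 h.

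The pools, 1 per condition and line and so without replicates at a time, were highest against fed at 8 h in both lines. In the fasted pool 65 of 75 genes were above the fed one in the hepatocyte line and 68 of 75 in the macrophage line, with median log2 ratios of 0.33 and 0.31 after adding 0.5 CPM. At 24 h these counts were 38 and 29 of 75, with medians of 0.00091 and -0.06. Such counts and medians were not taken over all genes, so they have no background to be read against. The count of called genes in the pools depended on single pools: it was 5 to 7 without the fed pool of the hepatocyte line at 3 h, the fed pool of the macrophage line at 16 h or any of the 4 pools at 8 h, and 23 without the fed pool of the macrophage line at 24 h. For these fits no share of all genes is given.

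Other lists of mitochondrial genes gave mixed counts. Of 44 tested assembly factors, 4 rose and 12 fell in hepatocyte nuclei at 3 h and 7 rose and 11 fell at 8 h, with medians of -0.11 at both times. Of 77 mitochondrial ribosomal proteins, 5 rose and 11 fell at 3 h and 12 rose and 5 fell at 8 h, with medians of -0.10 and -0.0039. Of 21 import genes, 4 rose and 0 fell at 3 h and 6 rose and 1 fell at 8 h. Of the 14 citrate cycle enzymes, 5 rose at 3 h and 8 at 8 h and none fell, with medians of 0.26 and 0.44. Of 76 cytosolic ribosomal proteins, 3 rose and 1 fell at 3 h and 30 rose at 16 h, where their median was 0.50.

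Of 5 partners whose symbols fall outside the pattern, cytochrome c (Cycs), the electron carrier between complexes III and IV, rose at 8 h in hepatocyte nuclei by 1.09 ± 0.26, and in macrophage nuclei by 0.56 ± 0.18 (adjusted p 0.00157 and 0.0412). Ndufab1, the acyl carrier subunit of complex I, rose in hepatocyte nuclei at 8, 16 and 24 h by 0.75 ± 0.13, 0.37 ± 0.13 and 0.50 ± 0.13. Usmg5, a small ATP synthase subunit, rose at 3 and 8 h by 0.45 ± 0.17 and 0.54 ± 0.18, and Cyc1 of complex III at 16 h by 0.49 ± 0.17. Atpif1, the inhibitor of ATP hydrolysis by ATP synthase, went the other way, at -1.11 ± 0.35 at 8 h and -1.37 ± 0.37 at 24 h in hepatocyte nuclei and -0.85 ± 0.19 at 24 h in macrophage nuclei (adjusted p 0.0135, 0.00796 and 0.00359).

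Of 12 tested regulators of these genes, 6 rose and 2 fell in hepatocyte nuclei at 3 h and 7 rose and 2 fell at 8 h. The coactivator Ppargc1a rose by 2.41 ± 0.55 at 3 h, 1.70 ± 0.54 at 8 h and 2.37 ± 0.55 at 24 h, and was not called at 16 h, at -0.21 ± 0.53. Its 8 h call rested on 1 library and was lost without fasted replicate 4 (adjusted p 0.601). Its relative Ppargc1b rose by 1.47 ± 0.26 and 1.49 ± 0.26 at 3 and 8 h. Tfb2m, a factor of mitochondrial transcription, rose by 1.01 ± 0.16 and 1.27 ± 0.16 at these times and Tfam, which packages and transcribes mitochondrial DNA, by 0.43 ± 0.09 and 0.56 ± 0.09, while Tfb1m, a methyltransferase of mitochondrial ribosomal RNA, fell by 0.74 ± 0.17 and 0.43 ± 0.17 (adjusted p at most 0.0418). The 8 h call of Tfb1m was lost with RLE scaling, with DESeq2, without the filter and without fasted replicate 2 or 4 or fed replicate 1, 3 or 4.

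Among transcription factors with motifs in these promoters, Yy1 rose at 3 and 8 h by 0.67 ± 0.12 and 0.55 ± 0.12 and Gabpa by 0.57 ± 0.11 and 0.44 ± 0.11, while Nrf1 rose at 8 h by 0.58 ± 0.12 and was not called at 3 h. The annotated rows of Gabpa and Atp5j overlap on opposite strands. Esrrg, an estrogen-related receptor, fell by 1.38 ± 0.41 and 1.16 ± 0.41 at 3 and 8 h, and Esrra was called at no time in hepatocyte nuclei. The calls of Esrrg were lost without fed replicate 1 at 3 h (adjusted p 0.0531) and without fasted replicate 2 or 4 or fed replicate 4 at 8 h. Gabpb1 and Pprc1 were called at no time in either cell type. In macrophage nuclei Ppargc1a rose at all 4 times, by 2.35 ± 0.33, 1.81 ± 0.32, 1.08 ± 0.32 and 1.79 ± 0.32 at 3, 8, 16 and 24 h. Of the respiratory chain genes 0, 14, 7 and 0 rose there at these times, and a link to Ppargc1a was not tested. Regulators also called there included Ppargc1b at 3 and 8 h, Tfb2m at 3 h and Nrf1 at 16 h, all higher. Esrra was called lower at 3 h, and each of these calls was lost under some settings. The level of Ppargc1a in macrophage-tagged nuclei differed from the pools by -1.28 ± 0.15, beside the median of -1.23 for hepatocyte markers. Hepatocyte markers in these libraries summed at 3 h to 9670 to 22253 CPM in fasted and 5480 to 9184 CPM in fed ones, without overlap, at 16 h to 6244 to 8476 against 4621 to 6641 CPM and at 24 h to 9407 to 13607 against 5319 to 11296 CPM. With the hepatocyte marker term the rises of Ppargc1a were 1.62, 1.22, 0.82 and 1.37 at the 4 times, and the 16 h call was lost (adjusted p 0.056), as it was without fasted replicate 1 or fed replicate 1, 2 or 4.

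The authors' deposited tables cover a subset of genes for each cell type. Their hepatocyte table listed 69 of the 83 genes, 83.1%, against 23.6% of all genes in the count table. By the authors' deposited table, of these genes 26 rose at 3 h, 36 at 8 h, 13 at 16 h and 3 at 24 h at their adjusted p under 0.05, and 0, 0, 1 and 1 fell. Of all 4745 genes in that table, 41.6%, 42.8%, 21.6% and 24% were called at these times, in either direction. For Atp5sl the authors' deposited table gave a log2 fold change of 1.43 at 3 h and -0.65 at 16 h. The authors' deposited table for macrophages listed Cox5a alone of the 83 genes, or 1.2%, against 18.7% of all genes, with adjusted p between 0.52 and 1 over the 4 times. The names of these tables call them selective, and the labels give no rule by which the genes were chosen. The shares of genes listed can therefore not be read as an effect of fasting.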

How the data were processed

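Total nuclear RNA of 80 mouse liver libraries was sequenced as strand-specific pairs of 50 bases. Per the submitters' processing notes, STAR 2.4.2a, DESeq2 1.24.0 and the build mm10 were used; neither the counting tool nor its use of strand is named in the labels. The deposited counts are raw reads per gene body, introns included. The authors' deposited tables hold log2 fold changes with adjusted p-values for each time, and were only read, not recomputed. In all, 64 per-sample columns of other deposited tables were not used.

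Counts were scaled with TMM and tested in edgeR 4.0.16 (R 4.3.3, limma 3.58.1; robust quasi-likelihood F-test) after a filter for low counts (filterByExpr, minimum 10, total 15). Hepatocyte-tagged, macrophage-tagged and pooled libraries had a fit each, and a joint fit gave differences between the cell types. P-values were adjusted over all genes tested (Benjamini-Hochberg), and a call is an adjusted p under 0.05. The SE of a log2 fold change is its size divided by the square root of F. The scripts were tested on simulated data with known fold changes.

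Of the called members with a mean of at least 1 CPM, the 3 highest and 3 lowest per cell type and time were named. In the comparisons of fractions, of cell types, of pools and of fasting effects the 3 highest and 3 lowest called members were named, with no level minimum. In tests over several times the 4 with the smallest p were named. The alternative isoforms, the c subunit and Sdh genes, the rows that are not subunits and the regulators were always considered, and other genes were named after their values were seen. The members and lists were chosen with earlier results of these data known. Replicate numbers were given in accession order. In macrophage nuclei they coincide with consecutive runs of library numbers, each run holding 1 library of every group, and the run was tried as a term. The titles of the 64 tagged libraries also carry a second number, different in each, whose meaning is not stated. It is not stated either that the libraries of a group came from separate mice, so their spread may be technical. Library totals of 12597786 to 44694933 counts set the counting error, and 95% counting intervals and floors (3 counts) cover that error only. The alternatives were RLE scaling, no filter, DESeq2 1.42.0, the run of library numbers as a term, fits to the 8 libraries of 1 time, and leaving out each library.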

Additional observations from a re-analysis of the deposited data

Results flagged for a closer look

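Among 128 groups of 4 libraries, 11 had 1 library apart from the other 3 by Dixon's criterion, or 8.59%, where chance gives about 5%. In hepatocyte-tagged nuclei these libraries were, for Cox6b2, fed replicate 3 at 16 h with 0.260 CPM and fed replicate 4 at 24 h with 0.0534 CPM, both the highest of their group. For Atp5sl they were fasted replicate 4 at 24 h, the highest with 46.9 CPM, and fed replicate 3 at 16 h, the lowest with 22.3 CPM. For Ndufa5 they were fasted replicate 4 at 8 h with 18.1 CPM and fed replicate 2 at 3 h with 9.34 CPM. Fasted replicate 1 at 16 h was the lowest for Ndufb11 with 4.30 CPM, and fed replicate 4 at 3 h the lowest for Ndufa9 with 28.3 CPM.

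In macrophage-tagged nuclei, fasted replicate 3 at 8 h stood apart for Cox5b with 8.36 CPM and fed replicate 3 at 3 h for Cox6c with 13.4 CPM. For the summed level of the 83 genes, fed replicate 1 at 24 h stood apart with 1372 CPM.

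The fasting effect differed between the cell types, hepatocyte minus macrophage on the log2 scale, at 3 h by 1.28 for Atp5sl, 1.15 for Cox5b, 1.07 for Atp5d, 0.62 for Uqcrc1, 0.54 for Ndufa7 and 0.39 for Atp5c1. At 8 h it differed by 2.59 for Cox6b2 and 0.45 for Ndufa9, and for Cox6b2 by 3.55 at 16 h and 4.54 at 24 h. In hepatocyte nuclei the effect differed between the 4 times for Atp5s, Atp5sl, Ndufa9 and Atp5g2, with edgeR adjusted p 1.74e-05, 4.92e-05, 0.00062 and 0.0135.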

How the results depend on the processing

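The titles give no replicate numbers, but their library numbers fall into consecutive runs that each hold every group, and in macrophage nuclei each run of 8 holds 1 library of each group. With the run as a term, 96 single-gene values stayed on their side of the threshold and 1, for Cox5b in macrophage nuclei at 3 h, no longer passed it. Of 131 results for single genes, 1415 values under other settings kept the direction in every case: 1203 stayed on their side of the threshold and 212 no longer passed it. Counts of called genes moved by over 1.5 times as follows, with no share of all genes given under the same settings. In fits to the 8 libraries of 1 time the count was 2 in hepatocyte nuclei at 16 h, and 0, 5 and 1 in macrophage nuclei at 3, 8 and 16 h. Without the filter on low counts it was 0, 9 and 1 in macrophage nuclei at 3, 8 and 24 h, and 1 and 0 for the difference between the cell types at 8 and 16 h. With DESeq2 it was 3 and 1 in macrophage nuclei at 3 and 24 h and 0 for the difference at 16 h. With RLE scaling it was 2 in macrophage nuclei at 3 h. With the hepatocyte marker level as a term, chosen after seeing the data, it was 0, 2 and 1 in macrophage nuclei at 3, 8 and 24 h. With the run of library numbers as a term it was 1 for an effect that differs between times in macrophage nuclei.

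Leaving out 1 library at a time, the counts at 3, 8, 16 and 24 h were 27 to 35, 35 to 44, 5 to 24 and 3 to 6 in hepatocyte nuclei and 0 to 6, 0 to 16, 3 to 9 and 0 in macrophage nuclei. They were 32 to 37 and 62 to 65 for hepatocyte-tagged and macrophage-tagged nuclei against the pools and 5 to 23 for the pools. Shares of all genes are not given for these ranges. Libraries were not left out in the tests over several times or between cell types. The cause of these changes was not tested, except that smaller fits hold fewer libraries. Depth limits the members under 1 CPM, of which Cox6b2 had 1 count in fed hepatocyte libraries at 24 h.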
